A study of Mus musculus with 32 samples.

Results

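HL-1 is a mouse line derived from atrial cardiomyocytes. The comparison described here is between HL-1 cells sampled at 28 h and HL-1 cells sampled at 16 h, all kept in control medium, and it uses 8 of the 32 RNA-seq samples of the series. They were chosen by their labels, 4 libraries for each time. Their medium had been taken from cultures of the mouse hepatocyte line AML12 that were not synchronized with the agent the labels abbreviate as DEX, so all 8 libraries share exposure to hepatocyte-derived medium and no group here is free of it. The series also sampled HL-1 cells at 16 h and 28 h in conditioned medium (CM) from DEX-synchronized AML12 cells. These 8 libraries were fitted together with the control libraries, so they also shape the estimate of scatter and the choice of genes tested. They serve below, too, to ask where the time change differs between the media. Sample descriptions give the times as ZT16 and ZT28, and they name the CM libraries DEX where the titles say CM. The labels do not say from what event the hours were counted, whether the medium was renewed, or whether libraries that share a group were grown apart. A p-value here thus reflects how far the sampled libraries scatter, and that scatter may be purely technical. The time of sampling and whatever else changed in the dishes between 16 h and 28 h cannot be told apart.

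The lists used below follow textbook programmes, but they and their members were chosen with earlier results of these data known. The transcription factor HIF-1, stabilized when oxygen is low, raises glycolytic enzymes, glucose transporters and its own prolyl hydroxylases. E2F and the MYB-MuvB and DREAM complexes set the genes of DNA replication and mitosis, MYC the making of ribosomes, NF-kB and STAT3 inflammatory and acute-phase genes, and FOXO factors genes of quiescence and autophagy. Cells of most tissues also carry a circadian clock, in which the activators BMAL1 (gene Arntl here) and CLOCK drive Per, Cry and Nr1d genes whose products repress them.

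All levels are CPM, read counts divided by the TMM-scaled library total in M, and every difference is a log2 fold change ± SE of 28 h against 16 h, positive where 28 h was higher. A gene is called where the adjusted p of edgeR's quasi-likelihood test is under 0.05. SE is the size of the change divided by the square root of that test's F statistic. It is approximate, and for genes with few reads at a time it can be smaller than counting error alone. Total counts ran from 15.7 to 18.1 M in the 8 libraries. The first principal component held 69% of the variance and separated the times without overlap, with the 16 h libraries between -38.0 and -35.1 and the 28 h libraries between 36.1 and 38.8. The 16 h libraries 1 and 3 lay furthest apart within a group, on a component of 6.88%. The 16 h library 3 also held the most reads of the ribosomal RNA copy Rn18s-rs5, 15916 CPM against 5086 to 7130 CPM in the other 7 control libraries. With the 16 h libraries 1 and 3 both left out, 8297 genes were called in place of 9071, and 7954 of them were also among the 9071, none with the opposite sign.

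The cardiomyocyte label was only partly borne out by the markers. In the list of 35 genes for sarcomere proteins and natriuretic peptides, 14 averaged at least 1 CPM at either time and 6 at least 10 CPM. Another 8 had no read in the 8 control libraries, among them Myh6, Myl2, Myl7, Mybpc3 and Nppa. The intermediate filament gene Des (380 CPM at 16 h), the gap junction gene Gja1 (510 CPM) and the troponin Tnnt2 (23.7 CPM) were present. Markers of other cells were partly absent: 7 of 12 leukocyte, 3 of 11 endothelial and 8 of 18 hepatocyte and bile duct markers had no read in the 8 libraries. Ptprc, Adgre1 and Tyrobp (leukocytes), Tie1, Emcn and Cldn5 (endothelium) and Alb, Ttr and Hnf4a (hepatocytes) were among them. At 1 CPM or more on average at either time were 1 leukocyte, 1 endothelial and 4 hepatocyte and bile duct markers. So were 5 of 8 smooth muscle and 5 of 10 neuronal and Schwann cell markers. Of 3 endothelial markers tested, Eng (0.84 ± 0.19) and Vwf (3.12 ± 0.59) rose, and the summed level of the list went from between 2.05 and 4.39 CPM to between 6.05 and 7.07 CPM. The hepatocyte and bile duct list summed to between 2529 and 2741 CPM at 16 h and between 2328 and 2417 CPM at 28 h, most of it Spp1, a secreted phosphoprotein gene (2493 CPM on average at 16 h). Fibroblast and mesenchymal genes were present, 12 of 15 of them at 1 CPM or more and 9 at 10 CPM or more. In bulk RNA a smaller share of cells of a type and less RNA per cell cannot be told apart.

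The change between the times reached most of the transcriptome. Of 14450 genes tested, 9071 (62.8%) were called, 4550 higher at 28 h (31.5%) and 4521 lower (31.3%). The median log2 fold change over all genes tested was 0.00. Levels are relative to scaled library totals, which holds this median near 0, and a change in total RNA per cell would not show. Most calls were small, with 52.8% of the called genes under 0.5 in size. At least 2-fold, 1021 genes were higher (7.07%) and 317 lower (2.19%). For 4079 genes (28.2%) all 4 libraries of 28 h lay above all 4 of 16 h, and for 3985 (27.6%) all lay below. The count of a list's members is to be read against these shares. Such a count describes a list chosen with earlier results known and is not an independent test.

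**Figure D1:**
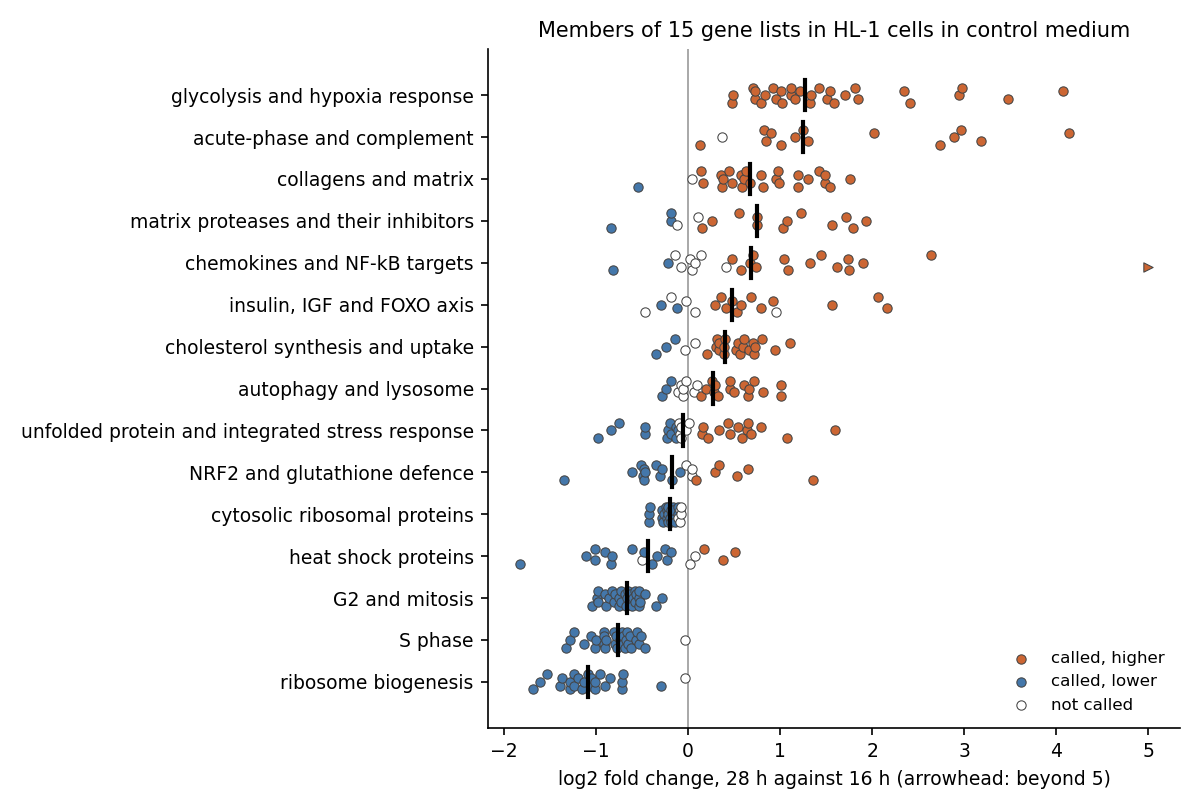
Log2 fold change of 28 h against 16 h (x axis) for the tested members of 15 gene lists in HL-1 cells in control medium; each point is a gene, filled where called, and the bar is the list's median. The medians run from 1.27 for glycolysis and hypoxia response to -1.09 for ribosome biogenesis; the arrowhead is Nos2 at 11.10.

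The genes of glycolysis and the hypoxia response rose as a block. All 30 tested members were called higher, each with 28 h libraries above every 16 h library, and their median was 1.27 against 0.00 over all genes. The promoters of the 3 members with the smallest p among those that hold the core of the HIF-binding element are shown, because that core was in most of the list's windows. The core was added to the motifs after the values had been seen. Capitals mark the core ACGTG or its reverse complement CACGT; the windows run from 250 bases before to 50 bases after the start of the gene, 5′ to 3′ on the gene's strand, in GRCm38.p6, from RefSeq.

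Ero1a, chr14:45318523-45318822, minus strand: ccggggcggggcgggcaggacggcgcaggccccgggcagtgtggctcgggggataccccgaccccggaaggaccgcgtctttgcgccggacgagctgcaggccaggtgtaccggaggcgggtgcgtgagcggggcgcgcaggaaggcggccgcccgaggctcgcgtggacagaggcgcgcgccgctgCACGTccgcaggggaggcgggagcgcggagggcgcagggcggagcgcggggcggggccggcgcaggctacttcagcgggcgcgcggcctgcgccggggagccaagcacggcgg
Bnip3, chr7:138909457-138909756, minus strand: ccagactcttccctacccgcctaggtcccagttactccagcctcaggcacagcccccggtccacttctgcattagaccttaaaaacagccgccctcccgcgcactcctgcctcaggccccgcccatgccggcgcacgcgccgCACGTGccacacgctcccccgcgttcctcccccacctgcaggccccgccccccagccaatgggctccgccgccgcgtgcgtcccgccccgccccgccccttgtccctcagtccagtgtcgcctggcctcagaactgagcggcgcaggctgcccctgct
Egln1, chr8:124949205-124949504, minus strand: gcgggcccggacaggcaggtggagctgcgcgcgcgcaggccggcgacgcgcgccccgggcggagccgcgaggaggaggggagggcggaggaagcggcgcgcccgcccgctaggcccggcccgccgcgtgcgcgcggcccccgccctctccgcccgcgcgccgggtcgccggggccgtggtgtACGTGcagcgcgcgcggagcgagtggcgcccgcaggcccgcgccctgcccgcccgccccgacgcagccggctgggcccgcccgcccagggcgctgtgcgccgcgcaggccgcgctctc

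The core was searched on both strands, and it overlaps the E-box CACGTG, which the Bnip3 window holds. Of the 29 list members with a window, 22 held the core (75.9%), against 29.2% of the 10137 tested genes with a window and 21.8% of all 27025 genes in the table. The 7 members without it had about the same median change, 1.22 against 1.24. Among the genes at least 2-fold higher, the core was no more frequent than among all tested genes, at 29.1% of 659 with a window. In the 4 clock lists, whose genes changed in both directions, the core was in 11 of 18 windows (61.1%). A match is a description of letters in this window and not a binding site.

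Large rises among the members with many reads included genes that HIF-1 is known to drive. A part of HIF-1 in these rises was not tested. Ndrg1 (chromosome 15, 66929318 to 66969640, minus strand), a stress-induced gene of differentiation, stood at 96.4, 93.8, 103 and 90.6 CPM at 16 h and at 702, 776, 759 and 713 CPM at 28 h (2.94 ± 0.05, adjusted p = 2.5e-24). Ero1a, the oxidase that renews disulfide bonds in the endoplasmic reticulum, went from 205, 195, 201 and 185 CPM to 1496, 1568, 1615 and 1513 CPM (2.98 ± 0.05). In both genes the libraries of a time differed by far less than the times did. Bnip3, a mitophagy receptor, went from 56.7, 52.9, 56.6 and 49.9 CPM to 266, 283, 275 and 272 CPM (2.34 ± 0.05). Pdk1, a kinase that inhibits pyruvate dehydrogenase, rose from 120, 124, 118 and 120 CPM to 432, 445, 431 and 434 CPM (1.85 ± 0.04). Neither gene's groups overlapped.

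Genes with few reads at 16 h gave the largest folds of the list. The carbonic anhydrase Car9 was at 1.71, 0.751, 1.48 and 1.43 CPM at 16 h and at 14.3, 15.3, 16.3 and 14.4 CPM at 28 h (3.47 ± 0.15). The vasodilator peptide gene Adm was under 1 CPM in every 16 h library, the highest at 0.626, and between 5.51 and 6.94 CPM at 28 h (4.07 ± 0.26). The feedback arm moved the same way: the prolyl hydroxylases Egln3 (1.82 ± 0.05) and Egln1 (1.58 ± 0.04) rose, as did Ankrd37 (2.42 ± 0.16). Hif1a itself rose less, from 250 to 434 CPM on average (0.80 ± 0.04). Messenger RNA does not show the HIF-1 protein, which is regulated mainly by degradation.

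Every tested step of glycolysis and glucose uptake was higher. The glucose transporter Slc2a1 rose from 108, 122, 132 and 119 CPM to 321, 326, 327 and 311 CPM (1.42 ± 0.05), hexokinase Hk2 by 1.54 ± 0.05 and Pfkfb3, the maker of the activator of phosphofructokinase, by 1.32 ± 0.09. Lower down the path, Pgk1 rose by 1.12 ± 0.04, Gapdh by 0.83 ± 0.04, Ldha by 0.70 ± 0.03, Pkm by 0.49 ± 0.04 and Eno1 by 0.48 ± 0.04, the smallest change of the list. The differences in size between these enzymes were not tested. Vegfa, the angiogenic ligand, went from 199, 210, 214 and 194 CPM to 495, 518, 539 and 506 CPM (1.33 ± 0.05). The carbonic anhydrase gene Car12, which is outside the list, was among the largest rises of all genes (4.32 ± 0.18, from 0.323 to 0.873 CPM up to 10.6 to 13.0 CPM).

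**Figure D2:**
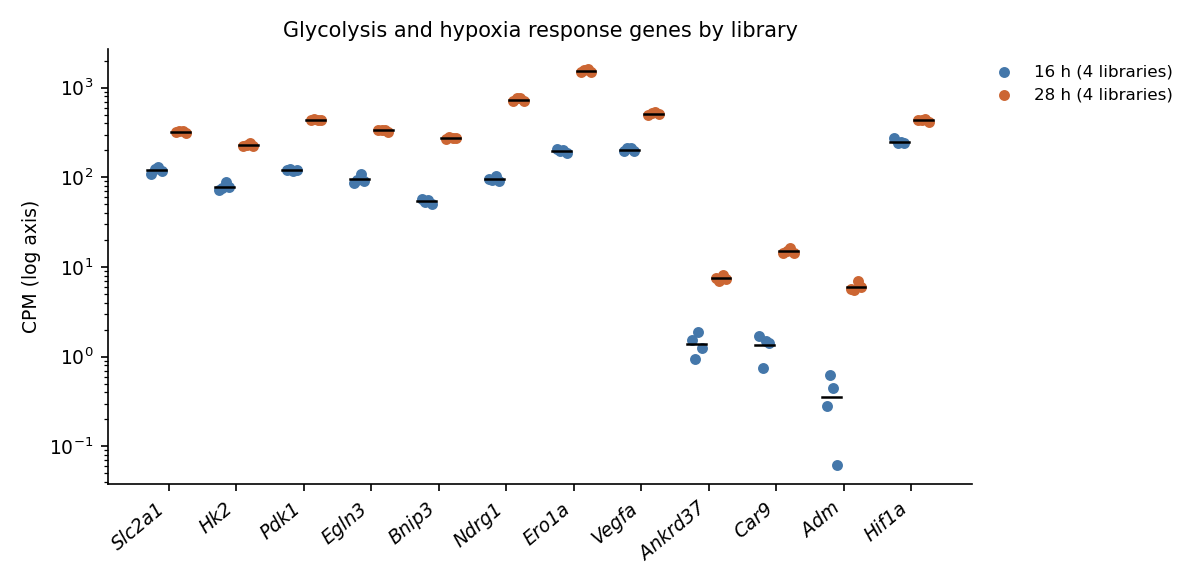
CPM on a log axis for 12 glycolysis and hypoxia response genes in the 4 libraries of 16 h (blue) and the 4 of 28 h (orange); points are libraries and bars are means. In each of the 12 genes the groups are apart, with Adm below 1 CPM at 16 h and above 5 CPM at 28 h.

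Genes of proliferation fell together. Of 32 S phase genes, 31 were called lower and none higher (median -0.76), and E2f1, the factor that drives many of them, was the exception at -0.03 ± 0.05. Of 32 G2 and mitosis genes all were lower (median -0.66). Mcm10, which loads polymerase at replication origins, fell from 77.2, 72.1, 69.9 and 73.6 CPM to 30.2, 29.4, 29.0 and 28.3 CPM (-1.32 ± 0.06), and the helicase subunit Mcm2 from 239, 257, 268 and 248 CPM to 117, 116, 115 and 117 CPM (-1.12 ± 0.05). The drop held in mitosis genes. The mitotic kinase Aurka fell from 191, 192, 179 and 189 CPM to 89.4, 97.2, 97.6 and 96.8 CPM (-0.98 ± 0.04). The groups of all 3 genes were far apart. The summed level of the 32 G2 and mitosis genes fell from between 10739 and 11159 CPM to between 6855 and 7313 CPM.

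Promoters of mitotic genes carry a cell cycle element, known for repression by the DREAM complex in resting cells, and the windows of the 3 members with the smallest p that hold it are shown with TTTGAA or its reverse complement TTCAAA in capitals.

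Aurka, chr2:172370521-172370820, minus strand: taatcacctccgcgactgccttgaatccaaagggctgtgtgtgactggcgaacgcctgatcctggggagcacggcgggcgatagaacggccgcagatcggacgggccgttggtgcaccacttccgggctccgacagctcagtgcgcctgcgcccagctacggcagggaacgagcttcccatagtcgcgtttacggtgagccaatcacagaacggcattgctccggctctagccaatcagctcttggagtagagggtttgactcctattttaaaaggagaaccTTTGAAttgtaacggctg
Kif23, chr9:61946750-61947049, minus strand: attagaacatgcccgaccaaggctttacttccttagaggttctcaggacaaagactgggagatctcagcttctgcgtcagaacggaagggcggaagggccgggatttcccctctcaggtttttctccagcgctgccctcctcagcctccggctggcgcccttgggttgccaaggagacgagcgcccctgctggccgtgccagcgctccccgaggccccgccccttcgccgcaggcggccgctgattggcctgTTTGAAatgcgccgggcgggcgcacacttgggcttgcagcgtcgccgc
Ccnf, chr17:24251360-24251659, minus strand: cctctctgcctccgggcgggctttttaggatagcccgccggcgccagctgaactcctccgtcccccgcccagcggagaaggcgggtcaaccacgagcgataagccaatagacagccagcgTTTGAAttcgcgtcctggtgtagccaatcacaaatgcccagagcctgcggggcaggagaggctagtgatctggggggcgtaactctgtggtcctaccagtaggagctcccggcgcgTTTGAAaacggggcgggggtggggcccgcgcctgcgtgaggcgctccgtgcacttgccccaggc

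Of the 26 G2 and mitosis genes with a window, 19 held the element on either strand (73.1%), against 14.4% of the tested genes with a window, and 20 held the box CCAAT (76.9% against 43.8%). Members with and without the element had medians of -0.66 and -0.67. In S phase genes the element was in 3 of 26 windows (11.5%), a share near that of all tested genes. It was in 13.6% of the 221 windows of genes at least 2-fold lower.

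Regulators of the cycle moved in both directions. Cyclin D1 (Ccnd1), the mitogen-driven cyclin of G1, fell from 490, 538, 536 and 554 CPM to 269, 283, 262 and 292 CPM (-0.94 ± 0.04), and Foxm1, a driver of mitotic genes, fell by 0.83 ± 0.04. The cyclin-dependent kinase inhibitor Cdkn1a rose from 138, 131, 143 and 133 CPM to 252, 266, 261 and 254 CPM (0.93 ± 0.04). Of 19 p53 targets and inhibitors tested, 8 rose and 6 fell (median 0.07), so the list did not move one way. Trp53inp1, a p53 target of autophagy, rose (1.40 ± 0.05), while the p53-induced nuclease Aen (-1.15 ± 0.07) and Ccng1 (-0.57 ± 0.05) fell.

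Ribosome biogenesis had the lowest median of the lists with at least 20 tested members. Of 25 genes, 24 were called lower and none higher (median -1.09), all 24 with no overlap of the groups. Dkc1, the pseudouridine synthase of ribosomal RNA (chromosome X, 75095854 to 75109777, plus strand), fell from 144, 153, 146 and 157 CPM to 49.3, 49.5, 49.2 and 49.5 CPM (-1.60 ± 0.05, adjusted p = 2.1e-18). The nucleolar helicase Ddx21 fell from 481, 471, 462 and 475 CPM to 198, 206, 199 and 195 CPM (-1.24 ± 0.04). The box C/D protein Nop56 (-1.38 ± 0.05) and the processing factor Rrp12 (-1.53 ± 0.08) were lower as well. Myc, which encodes the best known activator of this list, was the exception and gave -0.03 ± 0.07, with 53.6 to 70.2 CPM at 16 h and 57.5 to 64.7 CPM at 28 h. The genes of the ribosomal proteins moved little: of 28, 23 were lower and none higher, with a median of -0.19 and no member below -0.43.

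Chaperones of the cytosol and the mitochondrial matrix were lower at 28 h. Of 20 heat shock genes, 14 fell and 3 rose (median -0.43). Hsph1, the exchange factor of HSP70 and 1 of the 12 largest falls named by the rule, fell from 278, 267, 273 and 265 CPM to 82.8, 76.4, 73.5 and 72.8 CPM (-1.83 ± 0.07). Its partner Hspa8 fell from 2176, 2063, 2031 and 2087 CPM to 1133, 1128, 1107 and 1099 CPM (-0.90 ± 0.04). The matrix chaperonin pair Hspd1 (-1.10 ± 0.05) and Hspe1 (-1.01 ± 0.05) fell by similar amounts. The 3 that rose were the small heat shock genes Cryab (0.51 ± 0.05) and Hspb1 (0.38) and the HSP110 relative Hspa4l (0.17). Hspa1a and Hspa1b are near-identical and their reads may be split. Of the cold-inducible pair, Cirbp rose (0.64 ± 0.06) and Rbm3 fell (-0.60 ± 0.04).

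**Figure D3:**
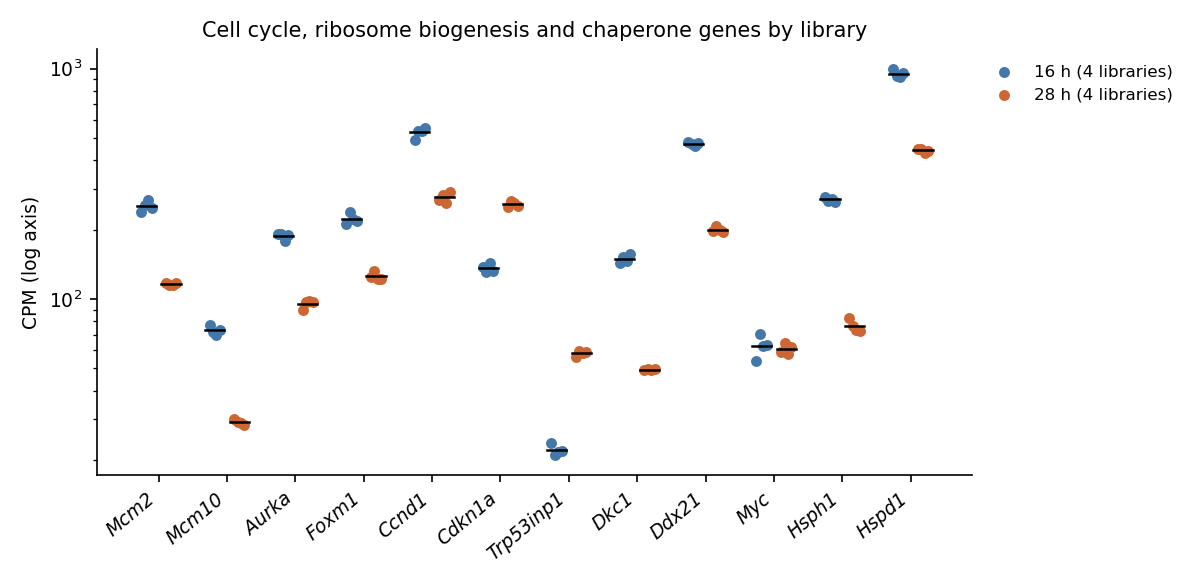
CPM on a log axis for 12 cell cycle, ribosome biogenesis and chaperone genes in the 4 libraries of 16 h (blue) and the 4 of 28 h (orange); points are libraries and bars are means. The groups overlap in Myc. Cdkn1a and Trp53inp1 are higher at 28 h and the other 9 genes are lower.

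Most tested genes of the insulin, IGF and FOXO axis rose, in a list that mixes receptors, adaptors and binding proteins with FOXO targets. Of its 19 tested genes, 12 were higher and 2 lower (median 0.48). Ccng2, a FOXO target that slows the cycle, went from 55.3, 50.8, 63.2 and 47.1 CPM to 245, 240, 248 and 234 CPM (2.16 ± 0.06). Foxo3 itself rose from 50.6, 51.9, 58.9 and 49.0 CPM to 155, 157, 164 and 147 CPM (1.57 ± 0.05). Pik3ip1, an inhibitor of phosphoinositide 3-kinase, rose from between 2.44 and 3.55 CPM to between 11.5 and 13.0 CPM (2.07 ± 0.14). None of the 3 had overlapping groups. Of 26 autophagy and lysosome genes, 16 rose and 3 fell (median 0.27), led by the kinase Ulk1 (1.01 ± 0.07), the phosphoinositide effector Wipi1 (1.01 ± 0.04) and Map1lc3b (0.71 ± 0.04). Their regulator Tfeb was not called.

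Lipid genes rose selectively. Of 25 genes of cholesterol synthesis and uptake, 20 were higher and 3 lower (median 0.40). Hmgcs1, an entry enzyme of the mevalonate path, went from 146, 136, 130 and 136 CPM to 261, 253, 263 and 276 CPM (0.95 ± 0.04), and lanosterol synthase Lss from 65.5, 69.8, 66.7 and 67.3 CPM to 118, 119, 122 and 111 CPM (0.80 ± 0.04). Mvk (-0.34) and Ebp (-0.24) were among the lower genes. The sterol exporter Abca1, an LXR target, rose too, from 42.3, 42.0, 45.2 and 43.8 CPM to 131, 122, 146 and 128 CPM (1.61 ± 0.05), while the lipoprotein gene Apoe fell (-1.46 ± 0.22). The sterol element TCACNCCAC was in 1 of 17 windows of the synthesis list, that of Hmgcs1 (5.88%), against 1.44% of the tested genes with a window, and CCAAT was in 16 of 17 (94.1%), against 43.8%.

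In fatty acid synthesis and storage 10 of 21 genes rose and 6 fell (median 0.10). The synthases Acaca (-0.15) and Fasn (-0.14) were slightly lower, whereas the phosphatidate phosphatase Lpin1 went from 10.0, 10.1, 10.7 and 9.91 CPM to 59.1, 55.7, 57.6 and 50.9 CPM (2.45 ± 0.07). Hilpda, a lipase inhibitor of lipid droplets, rose by 1.95 ± 0.08. The desaturase Scd2 rose by 0.89 ± 0.03 and Scd1 by 0.76 ± 0.03. Of 17 tested genes of fatty acid oxidation, 10 rose and 2 fell (median 0.17), with the dehydrogenase Acadm at 0.95 ± 0.04.

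The unfolded protein and integrated stress response did not move one way. Of 32 genes, 14 rose and 12 fell (median -0.05); Atf4 and Ddit3, the central factors, were not called. Vldlr (1.07 ± 0.05) rose, while Atf5 (-0.98 ± 0.08) and the serine metabolism genes Shmt2 (-0.84 ± 0.05) and Phgdh (-0.75 ± 0.04) fell. Of 34 nuclear-encoded genes of oxidative phosphorylation 12 were lower and 3 higher (median -0.08). Of the 12 tested mitochondrially encoded ones 3 were lower and 2 higher.

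The NRF2 list was mostly lower. Of 21 genes, 12 fell and 6 rose (median -0.17). The quinone reductase Nqo1 fell from 273, 244, 241 and 257 CPM to 93.6, 103, 96.4 and 105 CPM (-1.35 ± 0.05), and the thioredoxin reductase Txnrd1 by 0.61 ± 0.03. The heme oxygenase Hmox1, which shares the list, went the other way, from 23.5, 26.5, 26.3 and 25.2 CPM to 67.7, 65.4, 62.6 and 64.9 CPM (1.36 ± 0.05). The glutathione transferase Gsta1 had the largest fall of the genes that the naming rule considered, from 3.93, 3.00, 2.77 and 3.24 CPM to 0.246, 0.188, 0.222 and 0.378 CPM (-3.62 ± 0.33), and its close paralog Gsta2 fell by 2.20 ± 0.30; reads may be split between them.

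Inflammatory genes rose, and 1 of them went from almost no reads to a clear level. Nos2, the inducible nitric oxide synthase (ENSMUSG00000020826, chromosome 11, 78920787 to 78960254, plus strand), had 1 read in all libraries of 16 h together, in library 1 (0.0569 CPM), and 3281 reads at 28 h. Its 28 h levels were 47.3, 51.4, 58.4 and 40.3 CPM. The ratio of 28 h to 16 h was 3231, with an exact 95% interval from 579 to 127656 that covers counting error only (adjusted p = 4.9e-21). Gch1, which makes the cofactor of the synthase, rose modestly (0.58 ± 0.09), and Ass1, which renews its substrate arginine, fell (-0.44 ± 0.08). Both were chosen after their values were seen.

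Of 24 tested chemokine and NF-kB genes, 15 rose and 2 fell (median 0.69). The neutrophil chemokine Cxcl1 went from 97.6, 98.8, 119 and 91.3 CPM to 343, 351, 329 and 348 CPM (1.75 ± 0.05), and Cxcl5 from 288, 269, 295 and 242 CPM to 964, 921, 905 and 866 CPM (1.74 ± 0.06). The cytokine Il6 went from 1.31, 1.5, 1.61 and 1.43 CPM to 9.48, 8.08, 9.83 and 9.07 CPM (2.64 ± 0.17). No library of 16 h reached the level of any 28 h library in these 3 genes. Feedback inhibitors of NF-kB rose with them, Nfkbiz by 1.90 ± 0.05, Tnfaip3 by 1.45 ± 0.07 and Nfkbia by 1.33 ± 0.07. The 2 that fell were Cxcl12, a homeostatic chemokine (-0.81 ± 0.06), and the macrophage growth factor gene Csf1 (-0.21 ± 0.04). Tnf, Il1b, Cxcl10 and Icam1 had too few reads to be tested.

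Acute-phase and complement genes had a median of 1.25, with 14 of 15 tested members higher and none lower. Complement C3 (chromosome 17, 57203970 to 57228136, minus strand), the hub of the cascade, rose from 3.47, 4.07, 5.03 and 3.18 CPM to 71.4, 62.8, 74.9 and 68.5 CPM (4.14 ± 0.11, adjusted p = 1.3e-20). The copper oxidase ceruloplasmin (Cp) rose from 167, 155, 156 and 155 CPM to 636, 623, 681 and 638 CPM (2.03 ± 0.04). The serum amyloid gene Saa3 went from 0.341, 0.375, 0.387 and 0.935 CPM to 4.99, 4.38, 4.16 and 5.10 CPM (3.18 ± 0.26). Groups were apart in all 14. The receptor and its signalling partners moved too, with Il6ra at 1.31 ± 0.05, Osmr at 0.85, Stat3 at 0.83 ± 0.04 and the inhibitor Socs3 at 1.16 ± 0.09. Of 21 tested interferon and antigen presentation genes 11 rose and 1 fell (median 0.43), with the class I gene H2-K1 at 0.83 ± 0.05; class I genes are close paralogs whose reads may be split. Of 12 leukocyte markers, 7 were at 0 in all 8 libraries, Ptprc among them, and Cd68 alone was tested (0.53 ± 0.17). Their summed level went from between 1.38 and 1.76 CPM to between 2.07 and 2.83 CPM.

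**Figure D4:**
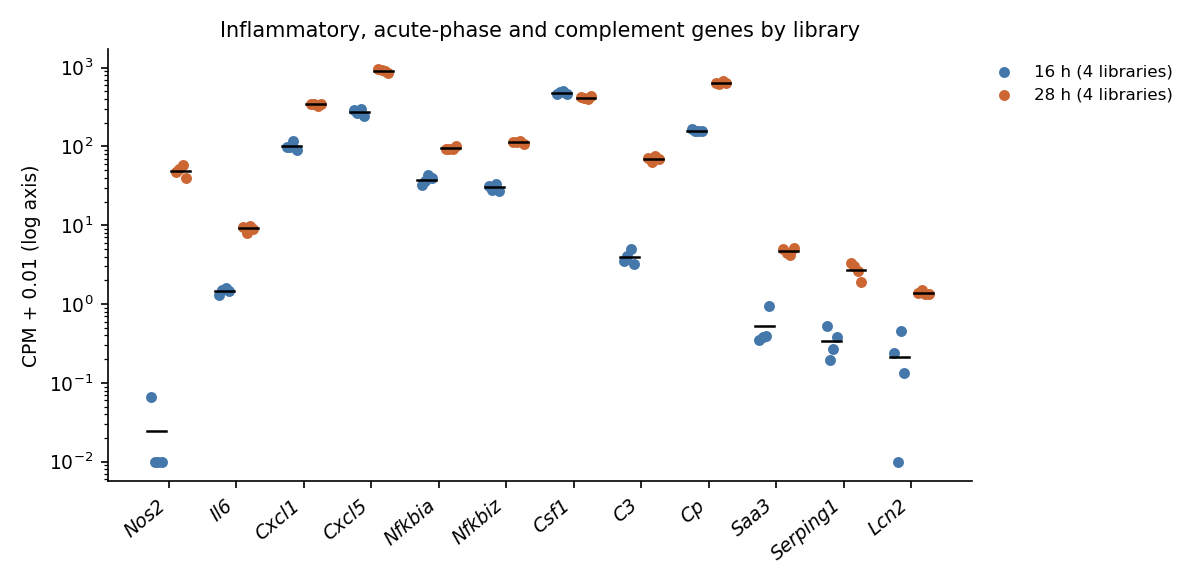
CPM + 0.01 on a log axis for 12 inflammatory, acute-phase and complement genes in the 4 libraries of 16 h (blue) and the 4 of 28 h (orange); points are libraries and bars are means. Nos2 is at 0 in the 16 h libraries 2 to 4 and at 40.3 CPM or more at 28 h, and Csf1 is the gene of the 12 that is lower at 28 h.

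Genes that respond to glucocorticoids were higher on the whole, 13 of 19 tested, with 1 lower (median 0.55). The transcription factor Cebpd went from 4.10, 7.26, 7.42 and 6.05 CPM to 41.4, 44.3, 41.0 and 40 CPM (2.76 ± 0.16), metallothionein Mt1 rose by 1.63 ± 0.07 and Errfi1 by 1.25 ± 0.05. Fkbp5, the chaperone partner most often read as a glucocorticoid reporter, was the 1 that fell (-0.54 ± 0.05). Ddit4 and Lcn2 also stand in the hypoxia or acute-phase lists. Of 25 immediate early genes 16 rose and 5 fell (median 0.45), led by Ier3, from 56.0, 58.2, 77.4 and 56.7 CPM to 361, 371, 390 and 328 CPM (2.55 ± 0.08). Fosl2 (1.26 ± 0.05) and Maff (1.38 ± 0.09) rose, while Egr1 (-0.22) and Arc (-1.46) fell.

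The extracellular matrix programme rose almost as a whole. Of 27 tested collagens and matrix genes, 25 were higher and 1 lower (median 0.68). Lox, the oxidase that crosslinks collagen, went from 592, 576, 603 and 563 CPM to 1611, 1739, 1728 and 1705 CPM (1.54 ± 0.04). The matricellular gene Thbs2 went from 448, 436, 446 and 438 CPM to 1164, 1145, 1252 and 1195 CPM (1.43 ± 0.04). Loxl2 (1.76 ± 0.08), tenascin Tnc (1.49 ± 0.05), Col6a1 (1.49 ± 0.06) and fibronectin Fn1 (0.98 ± 0.04) rose as well, without overlap. The 1 lower gene was Ccn2 (-0.54 ± 0.10), a target of TGF-beta and YAP. P4ha1 (1.12) and P4ha2 (1.71 ± 0.05), the collagen prolyl hydroxylases, stand in the hypoxia list and rose.

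Of 17 proteases and inhibitors, 12 rose and 3 fell (median 0.75), with Plat, the tissue plasminogen activator, at 1.72 ± 0.07 and the aggrecanase Adamts4 at 1.93 ± 0.10. Actin and contractile genes did not follow the matrix: of 19 genes linked to SRF 9 fell and 3 rose, with Acta2 at -0.76 ± 0.06 (from 379, 393, 393 and 402 CPM to 206, 244, 208 and 267 CPM) and Srf at -0.46 ± 0.08. Of 15 YAP/TEAD targets 6 rose and 6 fell. In the TGF-beta list 13 of 21 rose and 4 fell, with the ligand subunit Inhba at 1.24 ± 0.06, and Id1 (-0.81) and Id3 (-0.64) lower. Fibroblast markers were higher in 9 of 12 tested members and lower in 1, and their summed level went from between 8413 and 9635 CPM to between 10375 and 10877 CPM. Col1a1, Col1a2, Col3a1, Dcn, Lum and Postn stand in both the fibroblast and the matrix list, and the part of fibroblast-like cells in the matrix result was not tested.

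Cardiac genes changed in both directions. Of the 16 sarcomere and natriuretic peptide genes that could be tested 8 rose and 5 fell (median 0.29). Desmin (Des) rose from 336, 384, 416 and 385 CPM to 598, 643, 625 and 651 CPM (0.73 ± 0.06), the chaperone Cryab as above, and Tnnt2 by 0.32 ± 0.06. The slow myosin gene Myh7b went from 0.124 to 2.46 CPM on average (4.25 ± 0.47), a large fold at a low level. Tpm1 (-0.38 ± 0.04) and Ankrd1 (-0.34 ± 0.04) fell. Of 15 tested channel, gap junction and calcium genes 8 fell and 4 rose. The sodium pump subunit Atp1b1 (-1.28 ± 0.09) and the calcium pump Atp2a2 (-0.34 ± 0.04) were lower, the potassium channel Kcnj2 (0.83 ± 0.06) was higher, and the connexin Gja1 gave 0.01 ± 0.03. Among cardiac transcription factors Gata4 fell (-0.52 ± 0.09), and Nkx2-5 was not called.

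The clock genes changed in both directions. Of 21 tested, 10 were higher, 8 lower and 3 not called, against 31.5% higher and 31.3% lower over all genes tested. Among the activators, Arntl (chromosome 7, 113207465 to 113314126, plus strand) rose from 17.0, 17.9, 17.2 and 18.6 CPM to 42.5, 41.9, 43.3 and 43.2 CPM (1.28 ± 0.06, adjusted p = 3.7e-16), while Clock fell slightly (-0.18 ± 0.05). Arntl is known to be driven by ROR and repressed by REV-ERB receptors, and its window holds their element TAGGTCA, shown in capitals; TGGGTCA was searched as well.

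Arntl, chr7:113207261-113207560, plus strand: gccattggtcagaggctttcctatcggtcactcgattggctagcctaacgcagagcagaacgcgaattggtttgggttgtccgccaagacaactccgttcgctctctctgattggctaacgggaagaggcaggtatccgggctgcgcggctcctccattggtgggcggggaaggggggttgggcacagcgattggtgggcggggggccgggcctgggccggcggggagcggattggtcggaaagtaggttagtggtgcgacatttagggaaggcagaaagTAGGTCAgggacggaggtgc

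Either form of the element was in the windows of 2 of 18 clock genes, Arntl and Nfil3, and in 6.13% of those of tested genes. The E-box CACGTG was in 5 of 18 (Per1, Cry1, Ciart, Tef and Bhlhe41; 27.8%), against 11.5%. The D-box TTANGTAA was in 2 of 18 (Per3 and Rorb; 11.1%), against 1.88%.

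The repressors did not move together. Per1 rose from 20.0, 25.2, 24.3 and 24.9 CPM to 31.8, 36.2, 37.7 and 30.7 CPM (0.54 ± 0.09), Per2 fell from 24.7, 31.5, 29.0 and 30.5 CPM to 18.8, 21.3, 22.5 and 20.2 CPM (-0.48 ± 0.07), and Per3 gave 0.12 ± 0.07 (adjusted p = 0.14). Cry1 fell (-0.27 ± 0.07). Cry2 gave 0.24 ± 0.09 (adjusted p = 0.023), a call that was lost without library 4 of 16 h (adjusted p = 0.102) or library 3 of 28 h. Of the receptors and output factors, Nr1d2 went from 96.5, 99.1, 88.1 and 98.2 CPM to 56.3, 58.5, 56.9 and 59.9 CPM (-0.72 ± 0.05). Tef fell by 0.47 ± 0.04, Dbp by 0.54 ± 0.15 and Nr1d1 by 0.24 ± 0.07. Hlf fell (-0.94 ± 0.32), a call lost without library 4 of 28 h (adjusted p = 0.0565). Ciart gave 0.28 with an adjusted p of 0.0468, and its call was lost in 6 of 8 fits that left out 1 library. Rorb (0.05) and Npas2 (1.00, adjusted p = 0.0569) were not called. Nfil3 (1.26 ± 0.07), Bhlhe40 (1.85 ± 0.05) and Bhlhe41 (0.85 ± 0.07), which also answer to signals outside the clock, rose. Bhlhe40 is a known HIF-1 target and went from 79.2, 83.6, 85.1 and 75.3 CPM to 278, 286, 317 and 285 CPM. The receptor gene Rora rose from at most 0.387 CPM to between 2.83 and 4.39 CPM (3.49 ± 0.27).

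The time change in control medium was set against that in conditioned medium, where 9453 genes (65.4%) were called, by a test of the difference itself. That test called 40 genes (0.277%), 15 with the change more positive in CM (0.104%) and 25 with it more negative (0.173%); 972 had an unadjusted p under 0.05. None of the 30 hypoxia, 64 cell cycle or 25 ribosome biogenesis genes was among the 40. A missed call does not show equal changes, and with 0.277% of all genes called, their absence says little about these lists. Ndrg1 changed by 2.94 in control medium and 2.85 in CM, and Dkc1 by -1.60 and -1.66.

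Of the 40 genes, 8 were clock genes, and in all 8 the change was smaller in size in control medium than in CM. Per2 fell by 0.48 in control medium and by 2.14 in CM (difference -1.66, adjusted p = 1.5e-10), Per3 gave 0.12 against -1.37 (-1.49, 4.2e-10) and Arntl rose by 1.28 against 2.66 (1.39, 4.9e-11). Tef (-0.47 against -1.57), Dbp (-0.54 against -1.79), Cry1 (-0.27 against -1.22) and Nr1d2 (-0.72 against -1.41) fell in both media and by more in CM. Cry2 gave 0.24 against -0.34, with a difference of -0.58 (adjusted p = 0.0447) that was lost in 13 of 16 fits with 1 library left out, up to an adjusted p of 0.168.

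**Figure D5:**
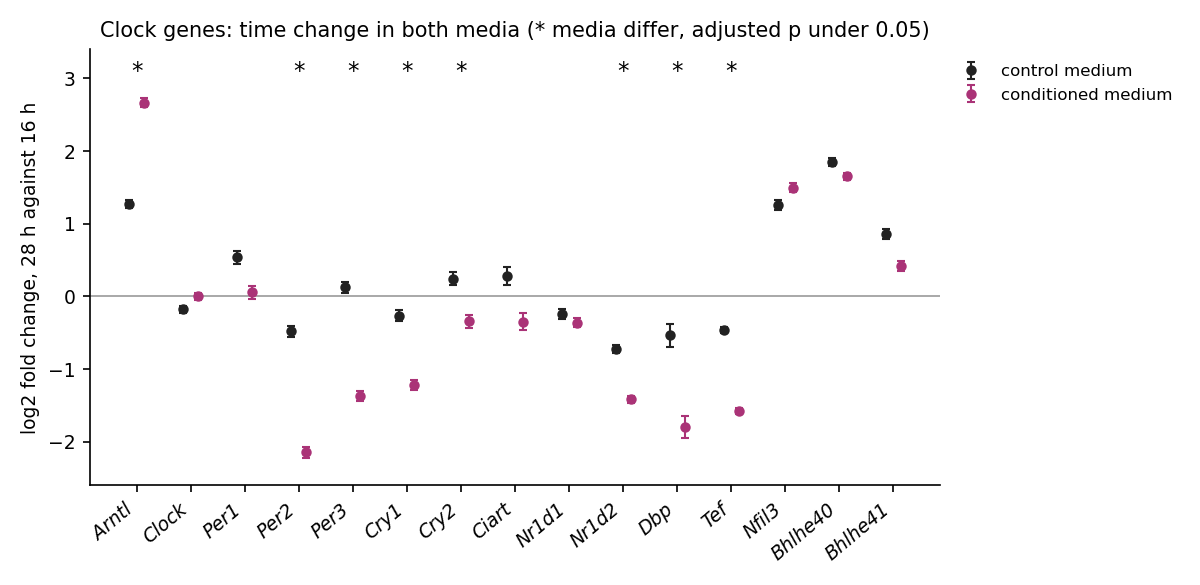
Log2 fold change of 28 h against 16 h ± SE for 15 clock genes in control medium (black) and conditioned medium (magenta), from 4 libraries per group; asterisks mark genes whose change differs between the media. Arntl rose by 1.28 in control medium against 2.66 in conditioned medium, and Per2 fell by 0.48 against 2.14.

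Outside the clock, 4 of 24 chemokine and NF-kB genes and 2 of 15 acute-phase genes differed between the media. In control medium Cxcl1 rose by 1.75 and in CM by 1.22 (difference -0.53, adjusted p = 0.0003). Ccl2 gave 0.74 against 0.05, Ptgs2 0.70 against 0.19 and Ccl7 0.04 against -0.66, with differences of -0.68, -0.52 and -0.70. Lcn2 rose from at most 0.452 CPM to between 1.32 and 1.5 CPM in control medium (2.74 ± 0.44) and gave -0.25 in CM, and Serpina3n gave 2.89 ± 0.34 against 0.59. Of 27 matrix genes, 2 differed between the media, Lox at 1.54 in control medium against 1.87 in CM and Thbs2 at 1.43 against 1.86, and the list's medians were 0.68 and 0.73. Of 17 proteases and inhibitors, 2 differed, Plat at 1.72 against 2.47 and Plau at 0.15 against 0.66, and the list's medians were 0.75 and 0.66.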

How the data were processed

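Bulk RNA was extracted with TRIzol and made into libraries with the NEBNext Ultra II RNA Library Prep Kit, per the labels' protocols. The authors deposited a table of raw read counts per gene for 55414 gene IDs. FastQC 0.11.8, STAR and the mouse build mm10/GRCm38 are named, per the submitters' processing notes. How reads were assigned to genes, with or without strand, and from which annotation version was not given in the sources used here. Reads of a gene therefore cannot be parted from those of an antisense or overlapping neighbour. No column of per-sample values was left unmapped (0), and 23808 genes had 0 counts in all HL-1 libraries.

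The 16 HL-1 libraries, 4 in each of 4 groups, were fitted together in edgeR 4.0.16 (R 4.3.3), with filterByExpr by group, TMM scaling, 1 mean per group, the quasi-likelihood test and Benjamini-Hochberg adjustment at 0.05 over 14450 genes. The difference between media is a contrast in the same fit. The procedure was tested on 5 simulated data sets for each size of change, with 200 genes changed and all others unchanged. It found 72.3% of changes of 0.5 log2 and 87.5% of changes of 1 log2, with 5.6 and 10 false calls on average. In the data 62.8% of genes were called, so the simulated setting is unlike them. Counting intervals are exact at 95% and cover counting error only. Gene positions come from GENCODE M21, which matched 94% of the IDs, and promoter windows from RefSeq.

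The members and lists were chosen with earlier results of these data known. Named genes are the 12 largest rises and 12 largest falls among called genes with no overlap of the groups and a mean of at least 1 CPM, all genes of the 4 core clock lists, up to 4 genes of each other list with the smallest p, and the 4 largest differences between media each way; other genes were chosen after their values were seen. Some genes that this rule names are not reported here. Same-numbered libraries did not deviate together (r = 0.0369, 0.0175, 0.0237 and 0.0169), so the numbers were not used to pair them. Alternatives were other scalings, testing without the filter, limma-voom (limma 3.58.1), DESeq2 1.42.0, a replicate block, the compared libraries alone and each library left out; leaving out 16 h libraries 1 and 3 together and removing rRNA genes were added after seeing the data.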

Additional observations from a re-analysis of the deposited data

Results flagged for a closer look

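Among groups of 4 control libraries, 24 of 410 (5.85%) had a library set apart from the other 3 by a gap above Dixon's 95% critical value for 4 samples; chance flags about 1 in 20. At 16 h, library 1 stood apart in Nos2 (0.0569 CPM), Selenbp2 (0.114 CPM), Per1 (20 CPM), Scd1 (871 CPM), Ulk1 (38.2 CPM), Actb (2725 CPM), Cp (167 CPM), Tinagl1 (33.6 CPM) and Dusp27 (11.7 CPM). Library 2 of 16 h stood apart in Myh7b (0.313 CPM). Library 3 of 16 h stood apart in Sectm1a (0.0645 CPM), Ier3 (77.4 CPM) and Map2 (11.8 CPM). The flags of Nos2, Selenbp2 and Sectm1a rest on 1, 2 and 1 reads, with none in the other 16 h libraries. A library that alone holds reads is always flagged. Library 4 of 16 h stood apart in Cry2 (11 CPM) and Kcnq1ot1 (3.24 CPM). At 28 h, library 1 stood apart in Aurka (89.4 CPM), and library 2 in Ciart (7.57 CPM), Pdk1 (445 CPM), Axl (722 CPM) and Eng (5.88 CPM). Library 3 of 28 h stood apart in Dnph1 (13.3 CPM), Rorb (29.9 CPM) and Uhrf1 (162 CPM), and library 4 in Gap43 (5.29 CPM).

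The time change differed between the media by the test of the difference itself in 16 of the named genes. Given as the change in CM minus that in control medium on the log2 scale, the clock genes gave 1.39 for Arntl, -1.66 for Per2, -1.49 for Per3, -0.95 for Cry1, -0.58 for Cry2, -0.69 for Nr1d2, -1.25 for Dbp and -1.11 for Tef. Lox gave 0.33, Thbs2 0.43, Plat 0.76, Tinagl1 0.66 and Dusp27 0.56. Cxcl1 gave -0.53, Lcn2 -2.99 and Serpina3n -2.29. The calls of Dusp27 and Tinagl1 were lost in 7 and 2 of 16 fits that left out 1 library. Serpina3n, with few reads at 16 h, lost its call with 16 h libraries 1 and 3 both left out (adjusted p = 0.0863).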

How the results depend on the processing

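No named gene that was called in the main fit or in an alternative changed its sign between them. Not all 25 alternatives were applied to each contrast. The control contrast was fitted in 8 alternatives with 1 library left out and 9 others, and the difference between media in 16 and 8. The 9071 calls in control medium became 8596 to 8888 with 1 library left out, with 4263 to 4378 higher and 4274 to 4566 lower, and 8297 to 9103 under the other settings. At least 2-fold, 1014 to 1063 genes were higher and 330 to 356 lower with 1 library left out, and 859 to 1277 higher and 281 to 427 lower under the other settings (lowest with the 8 compared libraries alone, highest with no low-count filter). In CM, 8968 to 9208 genes were called with 1 library left out. The difference between media moved most: 97 genes with no low-count filter (39 higher, 58 lower), 68 with DESeq2 (28 higher, 40 lower), and 32 to 55 with 1 library left out (10 to 19 higher, 19 to 39 lower, the 39 without library 2 of CM at 28 h); the cause was not tested. With the replicate block, 9081 genes were called in control medium, 8991 of them shared, and 49 for the difference between media. Of the 208 single genes, 3481 comparisons kept their side of the threshold, 44 lost it and 7 gained it; for the list counts and medians 2279 held and 118 moved.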

Other observations

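Genes of the Notch, Wnt and Hedgehog pathways changed in both directions. Of 15 tested, 8 rose and 6 fell (median 0.38). The receptor gene Notch3 rose from 63.9, 73.4, 87.2 and 80.3 CPM to 185, 189, 210 and 179 CPM (1.33 ± 0.08), and Notch2 rose by 0.74, while Notch1 (-0.36), the ligand Jag1 (-0.55) and the target Hes1 (-0.82) fell. The Wnt targets Notum (1.21), Axin2 (0.72) and Lef1 (0.71) were higher. The imprinted RNA gene H19 rose from 81.5, 72.3, 84.5 and 76.6 CPM to 206, 244, 211 and 265 CPM (1.56 ± 0.07).

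Iron uptake gave 1 of the larger falls. Tfrc, the transferrin receptor (chromosome 16, 32608920 to 32632794, plus strand), fell from 353, 333, 303 and 332 CPM to 98.7, 91.2, 94.3 and 99.5 CPM (-1.78 ± 0.06). The keratin gene Krt19, listed as a bile duct marker, rose from 46.8, 53, 52.7 and 54.8 CPM to 165, 195, 183 and 190 CPM (1.82 ± 0.05), with Alb and Hnf4a at 0 in all 8 libraries. Selenbp1, a selenium-binding protein gene, rose from at most 1.00 CPM to between 21.5 and 29.1 CPM (4.87 ± 0.16); Selenbp2 is a close paralog and reads may be split between them.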
